A study of Mus musculus with 58 samples.

Results

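The 10 genes described here belong to cholesterol export from brain cells, its control or the carriage of other lipids, and they were chosen by name. They are the transporters Abca1, Abcg1, Abcg4 and Abca7, the apolipoproteins Apoe, Apod and Clu, the phospholipid transfer protein Pltp, and the liver X receptors (LXR) Nr1h3 and Nr1h2. All 10 were found among the 15171 genes of the count table, and all 10 passed the filter on low counts, as did every other gene. Liver X receptors are nuclear receptors that sense oxysterols and, paired with a retinoid X receptor, switch on genes of cholesterol export. ABCA1 and ABCG1 then move cholesterol and phospholipid across the cell membrane onto apolipoprotein E, and the particles formed are remodelled outside the cell. The adult brain makes its own cholesterol, and astrocytes and microglia are its main sources of these particles.

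RNA was sequenced from 58 C57BL/6 mice of both sexes (28 female, 30 male), operated on at 3 months of age and sampled at day 14. Every mouse carried 2 copies of human APOE, as APOE3 or as APOE4, in place of its own Apoe coding sequence (targeted replacement), and either 2 functional copies of Abca1 (Abca1+/+) or 1 (Abca1+/-) in all cells. Injured mice received a controlled cortical impact on the left side of the brain, called traumatic brain injury (TBI) here, and sham mice had the same anaesthesia and craniotomy with no impact. Cortex and hippocampus at the injury site were pooled for each mouse. The APOE3 groups held 8 sham and 8 TBI mice with the genotype E3/Abca1+/+, and 7 sham and 6 TBI mice with E3/Abca1+/-. Of the APOE4 mice, E4/Abca1+/+ gave 7 sham and 7 TBI mice, and E4/Abca1+/- gave 7 sham and 8 TBI mice. Levels are given in CPM, the counts of a gene scaled to the normalized total of its library, and a change is a log2 fold change with its standard error from edgeR's quasi-likelihood test, called when the Benjamini-Hochberg adjusted p over all genes was under 0.05.

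A few facts of the libraries touch these genes. Total counts ran from 4421308 to 37877346 per mouse, and 21 of 28 Abca1+/- libraries were deeper than every Abca1+/+ library, so that depth differed between the copy numbers. Of 58 mice, 16 (0 to 4 in each group) had choroid plexus epithelium markers at scores of 2.81 to 5.24, and the other 42 had scores of 0.676 to 1.84, where a score is the mean log2(CPM + 1) of the markers. Mice with these markers were more common with 1 Abca1 copy. They were 0 of 8 sham and 1 of 8 TBI mice in E3/Abca1+/+, and 3 of 7 and 1 of 6 in E3/Abca1+/-. For E4/Abca1+/+ they were 2 of 7 and 2 of 7, and for E4/Abca1+/- 3 of 7 and 4 of 8. Replicate 8 of the injured E4/Abca1+/- mice had a hippocampal marker score of 3.26, the lowest of all, against 5.19 to 5.65 in the other 7 mice of its group. Replicate 8 of the injured E3/Abca1+/+ mice had 4.37, against 5.18 to 5.61 in the others of its group. That E3/Abca1+/+ mouse had the highest Abca1 (283 CPM) and Clu (1983 CPM) of its group, and no alternative left it out. Replicate 2 of the E4/Abca1+/- sham mice had a microglial score of 5.35, against 4.84 to 5.11 in the other 6. After TBI all 8 microglial, all 8 astrocytic and all 8 infiltrating myeloid markers rose, and 7 of 8 neuronal markers fell (edgeR, averaged over genotypes). The summed microglial markers were at 321 to 496 CPM in sham and 582 to 1205 CPM in injured mice, the astrocytic ones at 5421 to 6988 and 6794 to 11049 CPM, the infiltrating myeloid ones at 5.26 to 61.9 and 55.4 to 688 CPM, and the neuronal ones at 8232 to 9268 and 5858 to 8296 CPM. None of these 32 markers was at 0 in every mouse of either state. The part that cell numbers play in the changes below was not tested, and in bulk tissue fewer cells of a type cannot be told apart from less RNA in each cell.

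Most of the 10 genes rose after TBI. Abca1, Apod, Clu, Pltp and Abcg1 were called higher in each of the 4 genotypes, and the Apoe row in 3. The counts that follow include this row, which is not the level of human APOE. In E3/Abca1+/+ mice 6 of 10 genes were called higher, where 13.3% of all genes were, and 0 lower against 9.49%. E3/Abca1+/- mice had 7 of 10 higher against 13.7% of all genes and 1 lower against 10.1%. For E4/Abca1+/+ mice the counts were 5 higher against 9.24% and 0 lower against 4.5%, and for E4/Abca1+/- mice 7 higher against 19.7% and 0 lower against 12.7%. Averaged over the genotypes, 7 of 10 rose and 1, Nr1h2, fell, where 29% of all genes rose and 24.3% fell. Their middle log2 fold change (median) was 0.38, against 0.01 for all genes tested. In Abca1, Clu and Apod every injured mouse was above every sham mouse of its genotype, which held for 3 of 10 genes in E3/Abca1+/+ mice (4.36% of all genes), 3 in E3/Abca1+/- (6.57%), 3 in E4/Abca1+/+ (3.76%) and, with Abcg1 and Nr1h3, 5 in E4/Abca1+/- mice (7.36%).

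Abca1 (chr4:53030787-53159895 on GRCm38, minus strand), the transporter that loads cholesterol and phospholipid onto lipid-poor apolipoproteins, changed most of the 10 after TBI. In E3/Abca1+/+ mice it ran from 37.7 to 60.8 CPM (median 47.7, n = 8) in sham and from 123 to 283 CPM (median 147, n = 8) in injured mice. The E3/Abca1+/- mice ran from 29.2 to 41.6 CPM (median 35.3, n = 7) in sham and from 76.1 to 136 CPM (median 104, n = 6) in injured mice. No injured mouse of either genotype reached down to the level of a sham mouse. In E4/Abca1+/+ mice the level was from 33.3 to 51.7 CPM (median 48.9, n = 7) in sham and from 98.7 to 296 CPM (median 121, n = 7) in injured mice. The E4/Abca1+/- values went from 28.9 to 42.4 CPM (median 35.2, n = 7) in sham and from 81.0 to 214 CPM (median 130.1, n = 8) in injured mice. Over all genotypes the lowest of 29 injured mice, at 76.1 CPM, was above the highest of 29 sham mice, at 60.8 CPM. The log2 fold change was 1.82 (standard error 0.15, edgeR, adjusted p = 3.93e-08) in E3/Abca1+/+ mice and 1.55 (standard error 0.11, edgeR, adjusted p = 9.18e-08) in E3/Abca1+/- mice. It was 1.76 (standard error 0.22, edgeR, adjusted p = 9.84e-05) in E4/Abca1+/+ mice and 1.95 (standard error 0.17, edgeR, adjusted p = 7.18e-07) in E4/Abca1+/- mice. The averaged value of 1.77 (standard error 0.10, edgeR, adjusted p = 8.02e-23) is a 3.41-fold rise. Injured mice also differed more from each other than sham mice did. The SD was 74.6 CPM among injured E4/Abca1+/+ mice against 6.42 CPM in their sham group, or 47.8% against 14.1% of the mean. That was the widest spread of the 4 genotypes, and in E3/Abca1+/- mice, the narrowest, it was 20.3% against 10.9%.

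**Figure D1:**
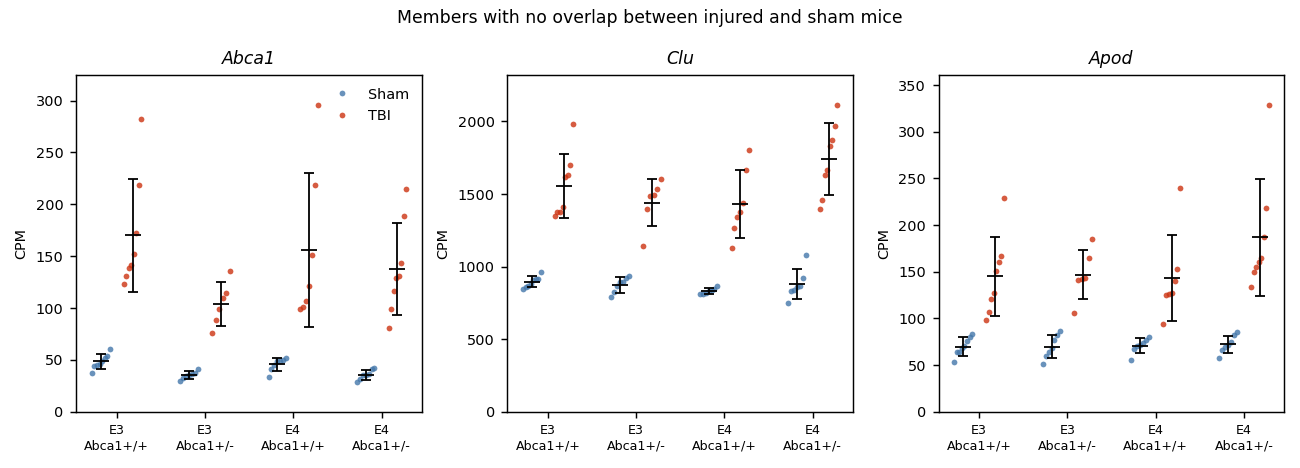
Levels of Abca1, Clu and Apod in CPM for every mouse, by genotype, with sham mice in blue and TBI mice in red; black bars are the group mean and SD. In all 3 genes the 29 injured mice lie above the 29 sham mice, and Abca1 reaches 283 and 296 CPM in the highest injured mice with 2 Abca1 copies. The share of all genes with such a separation is given only within each genotype. None is given for the genotypes pooled, so how unusual the pooled separation is cannot be read here.

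Liver X receptors act on Abca1 through a DR4 element, a repeat of a hexamer spaced by 4 bases, so the sequence in front of the gene is shown for the member that rose most. The 250 bases before the RefSeq start of Abca1 (GRCm38.p6, chr4:53159896-53160145, minus strand) are printed 5′ to 3′ on the gene's strand, with the half-sites of the best match to the DR4 letters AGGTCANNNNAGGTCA in capitals.
Abca1: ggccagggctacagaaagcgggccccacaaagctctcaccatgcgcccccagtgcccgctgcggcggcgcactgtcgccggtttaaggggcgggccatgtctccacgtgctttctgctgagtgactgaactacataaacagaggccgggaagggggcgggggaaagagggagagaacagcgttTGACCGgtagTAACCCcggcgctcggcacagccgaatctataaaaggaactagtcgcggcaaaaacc
The match lies on the opposite strand, begins 67 bases before the start, and has 3 mismatches among the 12 letters compared. Read on its own strand, it stands here beside the best matches of the other members with at most 4 mismatches, half-sites in capitals.
Abca1: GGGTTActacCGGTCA
Abca7: AGGTGAcccgTTGTCC
Nr1h2: AGTTCCggaaAGTTCT
Nr1h3: AGGTCCcggcACGGCC
Of 27018 RefSeq windows of 250 bases, searched on both strands, 18.5% held a match with at most 3 mismatches and 70.6% one with at most 4. Apod, Apoe and Pltp had 5 mismatches at best, as 99.5% of windows had or bettered, and no window was at hand for Abcg1, Abcg4 and Clu. Such a match is a description of letters, looked at after the values were seen.

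Abcg1 (chr17:31057675-31117988) moves cholesterol onto particles that already hold lipid. Its level in E3/Abca1+/+ mice was from 86.6 to 108 CPM (median 101, n = 8) in sham and from 94.1 to 126 CPM (median 118, n = 8) in injured mice. E3/Abca1+/- mice had it from 87.4 to 101 CPM (median 93.5, n = 7) in sham and from 96.0 to 119 CPM (median 103, n = 6) in injured mice. For E4/Abca1+/+ mice it lay from 87.6 to 108 CPM (median 102, n = 7) in sham and from 106 to 124 CPM (median 115, n = 7) in injured mice. The groups overlapped in these 3 genotypes, with 6 of 8, 5 of 6 and 6 of 7 injured mice above all sham mice. In E4/Abca1+/- mice, where they did not overlap, it went from 89.0 to 100.0 CPM (median 95.8, n = 7) in sham and from 103 to 136 CPM (median 117, n = 8) in injured mice. The rise was small next to that of Abca1, at log2 fold changes of 0.22 (standard error 0.07, edgeR, adjusted p = 0.0169), 0.17 (standard error 0.05, edgeR, adjusted p = 0.0161), 0.19 (standard error 0.05, edgeR, adjusted p = 0.0197) and 0.33 (standard error 0.06, edgeR, adjusted p = 0.000587) in the same order, and 0.23 (standard error 0.03, edgeR, adjusted p = 4.02e-09) when averaged. Among the 42 mice without choroid plexus markers the averaged value was 0.17 and still called, but the calls in E3/Abca1+/- (0.15), E4/Abca1+/+ (0.14) and E4/Abca1+/- mice (0.20) were lost.

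Abcg4 (chr9:44273188-44288615), a relative of Abcg1 expressed mainly in the nervous system, was not called in any genotype. Its group medians ran from 76.8 to 81.7 CPM in sham and from 73.9 to 80.8 CPM in injured mice, and the groups overlapped throughout. The averaged log2 fold change was -0.04 (95% interval -0.09 to 0.0066, edgeR, adjusted p = 0.141). DESeq2 called it lower (-0.06, adjusted p = 0.0474), as did edgeR without the mice with choroid plexus markers (-0.08, adjusted p = 0.025).

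Abca7 (chr10:79996494-80015572), a phospholipid transporter close in sequence to Abca1, was not called either. Sham medians were between 20.6 and 27.6 CPM and injured medians between 21.6 and 26.7 CPM, with overlap in every genotype. Its averaged log2 fold change was -0.06 (95% interval -0.17 to 0.06, edgeR, adjusted p = 0.437), an interval that leaves out a rise of the size seen in Abcg1.

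The counts of Apoe (chr7:19696109-19699188), which encodes the main apolipoprotein of the brain, need a reservation. The mice carry the human coding sequence, and reads were assigned to mouse genes, so this row is not the level of human APOE. The row held 76 to 965 counts per mouse. In E3/Abca1+/+ mice it was from 17.4 to 21.1 CPM (median 18.2, n = 8) in sham and from 16.5 to 27.7 CPM (median 22.7, n = 8) in injured mice. E3/Abca1+/- mice showed it from 18.6 to 23.6 CPM (median 20.1, n = 7) in sham and from 22.2 to 26.8 CPM (median 24.6, n = 6) in injured mice. Both pairs of groups overlapped, with 6 of 8 and 4 of 6 injured mice above all sham mice, and 1 of the 8 injured E3/Abca1+/+ mice was below them all. The E4/Abca1+/+ mice had levels from 16.5 to 22.9 CPM (median 19.4, n = 7) in sham and from 19.4 to 26.1 CPM (median 22.8, n = 7) in injured mice. In E4/Abca1+/- mice, with 7 of 8 injured mice above all sham mice, it was from 16.4 to 22.0 CPM (median 19.3, n = 7) in sham and from 20.7 to 28.9 CPM (median 26.3, n = 8) in injured mice. The log2 fold changes were 0.30 (standard error 0.08, edgeR, adjusted p = 0.0104), 0.25 (standard error 0.07, edgeR, adjusted p = 0.0105), 0.26 (standard error 0.09, edgeR, adjusted p = 0.0617) and 0.44 (standard error 0.08, edgeR, adjusted p = 0.000318), so that the call was missed in E4/Abca1+/+ mice.

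Clu (chr14:65968483-65981547) encodes clusterin, also named apolipoprotein J, a secreted chaperone and lipid carrier made largely by astrocytes. E3/Abca1+/+ mice had it from 845 to 962 CPM (median 895, n = 8) in sham and from 1347 to 1983 CPM (median 1516, n = 8) in injured mice. In E3/Abca1+/- mice it went from 788 to 936 CPM (median 892, n = 7) in sham and from 1139.8 to 1602 CPM (median 1488, n = 6) in injured mice. In both genotypes every injured mouse was above every sham mouse. E4/Abca1+/+ mice were at levels from 809 to 864 CPM (median 833, n = 7) in sham and from 1128 to 1806 CPM (median 1374, n = 7) in injured mice. The E4/Abca1+/- mice lay from 749.5 to 1082 CPM (median 860.5, n = 7) in sham and from 1396 to 2112 CPM (median 1749, n = 8) in injured mice. The sham mouse with raised glial markers was the one at 1082 CPM, the highest of all sham mice, and all injured mice were above it. Log2 fold changes of Clu were 0.80 (standard error 0.07, edgeR, adjusted p = 5.5e-08), 0.72 (standard error 0.07, edgeR, adjusted p = 9.42e-07), 0.78 (standard error 0.08, edgeR, adjusted p = 2.22e-05) and 0.99 (standard error 0.09, edgeR, adjusted p = 7.58e-07).

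Apod (chr16:31296192-31314808) encodes apolipoprotein D, a lipocalin that binds small lipids and is made by glia. Its level in E3/Abca1+/+ mice ran from 52.9 to 82.9 CPM (median 68.9, n = 8) in sham and from 98.1 to 229 CPM (median 139, n = 8) in injured mice. For E3/Abca1+/- mice it was from 51.3 to 86.5 CPM (median 68.1, n = 7) in sham and from 106 to 185 CPM (median 143, n = 6) in injured mice. Sham medians were close in these genotypes, and injured mice were about 1 log2 unit higher. E4/Abca1+/+ mice showed levels from 55.9 to 80.3 CPM (median 71.3, n = 7) in sham and from 93.8 to 239.8 CPM (median 127, n = 7) in injured mice. In E4/Abca1+/- mice they were from 57.6 to 85.1 CPM (median 71.6, n = 7) in sham and from 134 to 328 CPM (median 162, n = 8) in injured mice. The log2 fold changes came to 1.06 (standard error 0.14, edgeR, adjusted p = 9.51e-06), 1.08 (standard error 0.13, edgeR, adjusted p = 1.11e-05), 1.01 (standard error 0.15, edgeR, adjusted p = 0.00027) and 1.38 (standard error 0.16, edgeR, adjusted p = 5.86e-06).

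Pltp (chr2:164839518-164857711) transfers phospholipid between lipoproteins and remodels them. In E3/Abca1+/+ mice its level was from 37.0 to 55.0 CPM (median 43.4, n = 8) in sham and from 49.3 to 85.1 CPM (median 58.6, n = 8) in injured mice. E3/Abca1+/- mice had levels from 40.5 to 61.9 CPM (median 49.9, n = 7) in sham and from 48.7 to 75.1 CPM (median 65.2, n = 6) in injured mice. In both, injured mice were higher in the middle but overlapped with sham mice, 5 of 8 and 4 of 6 lying above all of them. E4/Abca1+/+ mice ranged from 36.9 to 52.6 CPM (median 43.0, n = 7) in sham and from 45.4 to 75.0 CPM (median 55.5, n = 7) in injured mice. The E4/Abca1+/- mice, with 7 of 8 injured above all sham, ranged from 35.7 to 50.2 CPM (median 42.2, n = 7) in sham and from 49.1 to 84.3 CPM (median 59.9, n = 8) in injured mice. All 4 genotypes were called, at 0.46 (standard error 0.11, edgeR, adjusted p = 0.00379), 0.37 (standard error 0.10, edgeR, adjusted p = 0.0116), 0.38 (standard error 0.11, edgeR, adjusted p = 0.0213) and 0.55 (standard error 0.10, edgeR, adjusted p = 0.000556) on the log2 scale.

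The receptors did not move together. Nr1h3 (chr2:91184061-91202834), LXR alpha, which is prominent in macrophages and liver, had the lowest counts of the 10, at 6 to 123 per mouse. In E3/Abca1+/+ mice it lay from 1.37 to 3.44 CPM (median 2.73, n = 8) in sham and from 2.41 to 4.18 CPM (median 2.81, n = 8) in injured mice. E3/Abca1+/- mice had it from 2.03 to 2.95 CPM (median 2.23, n = 7) in sham and from 2.81 to 6.00 CPM (median 3.79, n = 6) in injured mice. The former overlapped widely, with 3 of 8 injured mice above all sham mice, and the latter less, with 5 of 6. In E4/Abca1+/+ mice it was from 1.65 to 3.37 CPM (median 2.80, n = 7) in sham and from 1.76 to 4.71 CPM (median 3.17, n = 7) in injured mice. The E4/Abca1+/- mice went from 1.75 to 2.89 CPM (median 2.24, n = 7) in sham and from 2.96 to 4.94 CPM (median 4.06, n = 8) in injured mice, with no overlap. It rose by 0.79 (standard error 0.17, edgeR, adjusted p = 0.00309) in E3/Abca1+/- and by 0.79 (standard error 0.14, edgeR, adjusted p = 0.000238) in E4/Abca1+/- mice, and was not called in E3/Abca1+/+ (0.29) or E4/Abca1+/+ mice (0.30). The difference between Abca1 genotypes, tested as an interaction, was 0.50 (95% interval -0.0059 to 1.00, edgeR, adjusted p = 1.00) in APOE3 and 0.49 (95% interval -0.02 to 1.00, edgeR, adjusted p = 0.954) in APOE4 mice, and was not called. With all libraries thinned to 4421308 counts the log2 fold changes in E3/Abca1+/- and E4/Abca1+/- mice were 0.72 (adjusted p = 0.101) and 0.54 (adjusted p = 0.0513, edgeR).

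Nr1h2 (chr7:44549616-44553951), LXR beta, which is expressed widely and in most brain cells, went the other way. Sham medians were 35.1, 39.2, 37.2 and 31.8 CPM and injured medians 31.6, 35.6, 33.7 and 34.0 CPM in E3/Abca1+/+, E3/Abca1+/-, E4/Abca1+/+ and E4/Abca1+/- mice. The groups overlapped in all genotypes. It was called lower in E3/Abca1+/- mice, at -0.17 (standard error 0.05, edgeR, adjusted p = 0.0218), a call lost in a single fit over all mice (-0.17, adjusted p = 0.176), after thinning (-0.17, adjusted p = 0.235) and without the mice with choroid plexus markers (-0.14, adjusted p = 0.15, all edgeR). Averaged over genotypes it fell by 0.12 on the log2 scale (standard error 0.04, edgeR, adjusted p = 0.011). It stayed under the threshold in each of 9 alternatives, among them the run with no filter, which repeats the main fit.

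**Figure D2:**
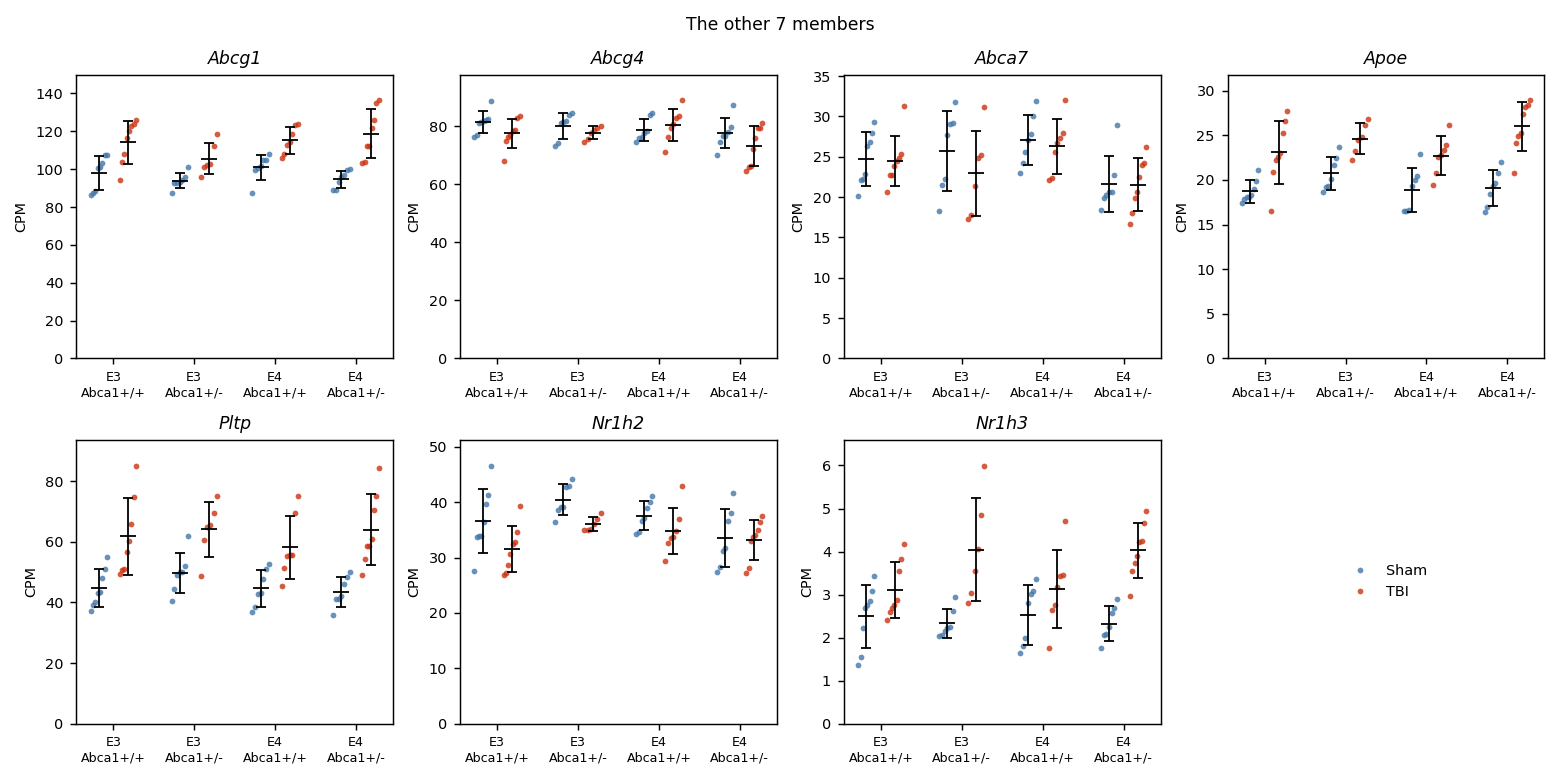
Levels in CPM of the 7 genes whose injured and sham mice overlapped in at least 1 genotype, drawn as in the plot of Abca1, Clu and Apod. Pltp, Apoe and Abcg1 shift upward within overlapping ranges, except for Abcg1 in E4/Abca1+/- mice, where the groups did not overlap. Nr1h3 was called in both genotypes with 1 Abca1 copy (a difference from 2 copies was not called), and Abcg4 and Abca7 show no call.

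The number of Abca1 copies showed in Abca1 itself. Sham mice with 2 copies had medians of 47.7 (APOE3) and 48.9 CPM (APOE4), and those with 1 copy had 35.3 and 35.2 CPM. Mean levels were 48.5 ± 6.92 CPM (SD, n = 8) in E3/Abca1+/+ and 35.3 ± 3.84 CPM (n = 7) among shams with E3/Abca1+/-, a 0.73-fold level in edgeR's fit. Gene-level counts include any reads from parts of the targeted allele that are still transcribed. Of the 10 genes, 1 was called between copies in APOE3 sham mice (2.27% of all genes), and 0 in injured APOE3 (0.0923%), APOE4 sham (0.87%) and injured APOE4 mice (1.36%). The call in APOE3 sham mice was Abca1, lost without the mice with choroid plexus markers (-0.38, adjusted p = 0.167) and in a single fit over all mice (-0.45, adjusted p = 0.253, edgeR). At an unadjusted p under 0.05 edgeR counted 2 of 10 genes in injured APOE3, 3 in APOE4 sham and 5 in injured APOE4 mice. Of all 15171 genes it counted 1393, 2407 and 2772. DESeq2 called 1, 2 and 0 of the 10, and its share of all genes is not given here. The ones DESeq2 called were Abca1 in injured APOE3 mice (-0.71, adjusted p = 0.0339) and Abca1 and Abca7 in APOE4 sham mice.

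The difference in Abca1 between 1 and 2 copies was smallest in injured APOE4 mice. There the E4/Abca1+/- mice had 81.0 to 214 CPM and the E4/Abca1+/+ mice 98.7 to 296 CPM, and the log2 fold change was -0.18 (95% interval -0.70 to 0.35, edgeR, adjusted p = 0.755). Among injured APOE3 mice it was -0.71 (95% interval -1.09 to -0.34, edgeR, adjusted p = 0.124). The difference between isoforms among injured mice was 0.54 (95% interval -0.14 to 1.21, edgeR, adjusted p = 0.588), which was not called. Averaged over isoform and injury, 2 of 10 genes were called between copies, where 17.9% of all genes were. Abca1 fell by 0.42 on the log2 scale (standard error 0.09, edgeR, adjusted p = 0.000816). Abca7 fell by 0.16 (standard error 0.06, edgeR, adjusted p = 0.0474), from 25.6 ± 3.27 CPM (SD, n = 30) with 2 copies to 22.9 ± 4.35 CPM (n = 28) with 1, with wide overlap. That call was lost after thinning (-0.16, adjusted p = 0.115), without the sham mouse with raised glial markers (-0.15, adjusted p = 0.0621) and without the mice with choroid plexus markers (-0.14, adjusted p = 0.221, edgeR). The Apoe row was at 0.11 (standard error 0.04, edgeR, adjusted p = 0.052), not called. It was called by edgeR without the mouse with the lowest hippocampal score (adjusted p = 0.0465) and with a minimum of 10 counts in every mouse (adjusted p = 0.0434).

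The APOE isoform gave no call among the 10 genes. Mice with 2 Abca1 copies had 0 of 10 called in sham (0.356% of all genes) and in injured mice (0.211%). Mice with 1 copy had 0 of 10 in sham (5.11%) and in injured mice (2.74%), and the averaged effect gave 0 against 15%. At an unadjusted p under 0.05 edgeR counted 1, 0, 3, 3 and 1 of the 10 in these comparisons. Of all 15171 genes it counted 1337, 1090, 3489, 2901 and 4275. DESeq2 called 0, 0, 1, 0 and 0 of the 10, again with no share of all genes given. The DESeq2 call was Nr1h2, at -0.27 (adjusted p = 0.0297) in sham mice with 1 copy, where edgeR gave -0.27 (95% interval -0.45 to -0.09, edgeR, adjusted p = 0.0703). Among injured mice with 1 copy, Clu was higher in APOE4 by 0.27 (95% interval 0.07 to 0.47, edgeR, adjusted p = 0.126), Abcg1 by 0.17 (95% interval 0.02 to 0.32, edgeR, adjusted p = 0.197) and Abca1 by 0.41 (95% interval 0.0057 to 0.81, edgeR, adjusted p = 0.254), with overlapping groups. A single fit over all mice called Clu in this comparison (adjusted p = 0.0412, edgeR). These injured groups also differed in marker scores, with microglial medians of 6.27 in E4/Abca1+/- and 5.85 in E3/Abca1+/- mice and astrocytic medians of 8.91 and 8.77, whose part in these values was not tested.

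**Figure D3:**
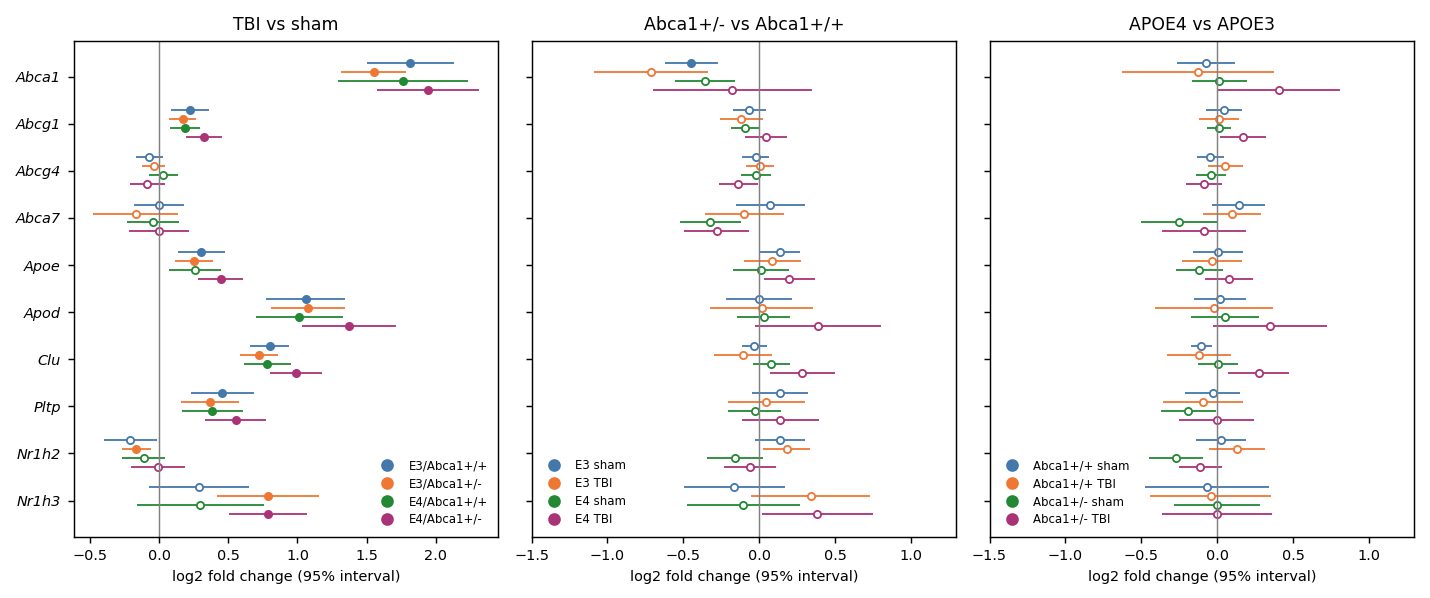
Log2 fold changes with 95% intervals of the 10 genes for TBI against sham, 1 against 2 Abca1 copies, and APOE4 against APOE3, each in 4 subsets of mice; filled points passed an adjusted p of 0.05. The injury panel holds nearly all filled points, the copy number panel 1 (Abca1 in APOE3 sham mice, -0.45) and the isoform panel none.

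Interactions asked whether the injury, copy number and isoform effects depend on each other. Of the 10 genes, 0 were called in edgeR's test for Abca1 by injury in APOE3 (0.0% of all genes) and APOE4 mice (0.0%), for isoform by injury with 2 copies (0.0%) and 1 copy (0.0%), for isoform by Abca1 in sham (0.0%) and injured mice (0.00659%), and for all 3 factors (0.0%). Of all 15171 genes, 327, 730, 337, 965, 1074, 1546 and 673 had an unadjusted p under 0.05 in these edgeR tests. The counts among the 10 were 0, 0, 0, 1, 2, 2 and 0, and DESeq2 called 0 in each. Those counted were Clu for isoform by injury with 1 copy (0.27) and for isoform by Abca1 in injured mice (0.39), Abca7 (-0.40) and Nr1h2 (-0.29) for isoform by Abca1 in sham mice, and Nr1h2 (-0.24) in injured mice. For Abca1 the test of all 3 factors had an interval of -0.30 to 1.20 on the log2 scale, the widest of the 7 for this gene.

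Between the sexes 1 of 10 genes was called, where 10.1% of all genes were. Abca7 was lower in females, at 22.4 ± 3.38 CPM (SD, n = 28), than in males, at 26.0 ± 3.85 CPM (n = 30), a log2 fold change of -0.21 (standard error 0.05, edgeR, adjusted p = 0.00858) with the 8 groups in the model. The ranges overlapped, at 16.7 to 31.3 and 18.1 to 32.0 CPM, and the adjusted p was 0.0517 after thinning. Abca1 (0.22) and Pltp (0.13) were higher and Nr1h2 (-0.10) and Abcg4 (-0.06) lower in females without being called.

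Levels per kilobase of exon let the genes be set beside each other. The lengths are unions of all exons of a gene in the GRCm38 annotation. The annotation used for counting is not given, so the order depends in part on these lengths. In sham mice Clu stood far above the rest, at 253 ± 18.2 CPM per kilobase (SD, n = 29), with Apod next at 27.4 ± 3.69 and Pltp at 17.8 ± 2.40. Abcg4 (15.2 ± 0.838), Abcg1 (13.3 ± 0.924) and Nr1h2 (11.04 ± 1.45) followed. Pltp and Abcg4 lay within their spread of each other. Abca1 (4.01 ± 0.778) and Abca7 (3.67 ± 0.605) also overlapped in sham mice, and Nr1h3 was lowest at 0.963 ± 0.220. After TBI the group means of Abca1 were 10.03 to 16.4 CPM per kilobase and those of Abca7 3.19 to 3.89. The Apoe row is left out of this order because it does not measure human APOE.

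Among mice of the same injury state, the members were set against the microglial and astrocytic marker scores, as deviations from the group means, in families of 20 relations for 29 injured and for 29 sham mice. Member and score come from the same libraries and scaling. Among injured mice Abca1 followed the astrocytic score with r = 0.89 and rho = 0.89 (permutation tests, adjusted p = 4e-05 and 5e-05), and its unadjusted p of 1e-05 is the smallest the permutations can give. Within the 4 genotypes its r ran from 0.82 to 0.96, and without the 2 mice farthest from the median score it was 0.87. Clu (r = 0.82 and rho = 0.86, permutation tests, adjusted p = 4e-05 and 5e-05) and Apod (r = 0.81 and rho = 0.83, permutation tests, adjusted p = 4e-05 and 5e-05) were close behind, at 0.87 and 0.77 without those mice. Pltp (r = 0.78 and rho = 0.72, permutation tests, adjusted p = 4e-05 and 0.0002), Nr1h3 (r = 0.72 and rho = 0.65, permutation tests, adjusted p = 8.57e-05 and 0.00092), Abcg1 (r = 0.65 and rho = 0.65, permutation tests, adjusted p = 0.000667 and 0.00092) and the Apoe row (r = 0.55 and rho = 0.64, permutation tests, adjusted p = 0.00605 and 0.00092) also passed. Abcg4, Abca7 and Nr1h2 did not pass, at r of -0.28, -0.04 and 0.34. For Abca7 the r within genotypes ran from -0.88 to 0.74, and it was -0.35 without the 2 farthest mice.

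The microglial score ordered the members differently, with Abca1 first again but Abcg1 ahead of Clu and Apod. Abca1 had r = 0.82 and rho = 0.81 (permutation tests, adjusted p = 4e-05 and 5e-05) and an r of 0.73 without the 2 farthest mice. Abcg1 (r = 0.69 and rho = 0.71, permutation tests, adjusted p = 8.57e-05 and 0.00016) and Pltp (r = 0.69 and rho = 0.70, permutation tests, adjusted p = 0.000475 and 0.000486) came next, with 0.68 and 0.59 without the 2 mice. Nr1h3 (r = 0.63), Clu (0.62), Apod (0.56) and the Apoe row (0.48) passed too, and r without the 2 mice was 0.50, 0.48, 0.36 and 0.49. These relations varied by genotype. Within the 4 genotypes r ran from 0.25 to 0.91 for Nr1h3 and from 0.05 to 0.96 for Clu. For Apod it ran from -0.09 to 0.89, and for the Apoe row from -0.08 to 0.75. Abcg4 went down with the score, at r = -0.42 and rho = -0.40 (permutation tests, adjusted p = 0.0429 and 0.0559), and r was -0.32 without the 2 mice. In sham mice, where both scores span less, only 4 of 20 relations passed by r. Clu and the astrocytic score had r = 0.77 and rho = 0.69 (permutation tests, adjusted p = 0.001 and 0.0022), falling to an r of 0.55 without the 2 farthest mice. The Apoe row had r = 0.51 and rho = 0.54 (permutation tests, adjusted p = 0.0328 and 0.0466), and Abca1 had r = 0.52 and rho = 0.51 (permutation tests, adjusted p = 0.0328 and 0.0627) with the astrocytic and r = 0.55 and rho = 0.40 (permutation tests, adjusted p = 0.0275 and 0.178) with the microglial score, neither passing by rank.

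**Figure D4:**
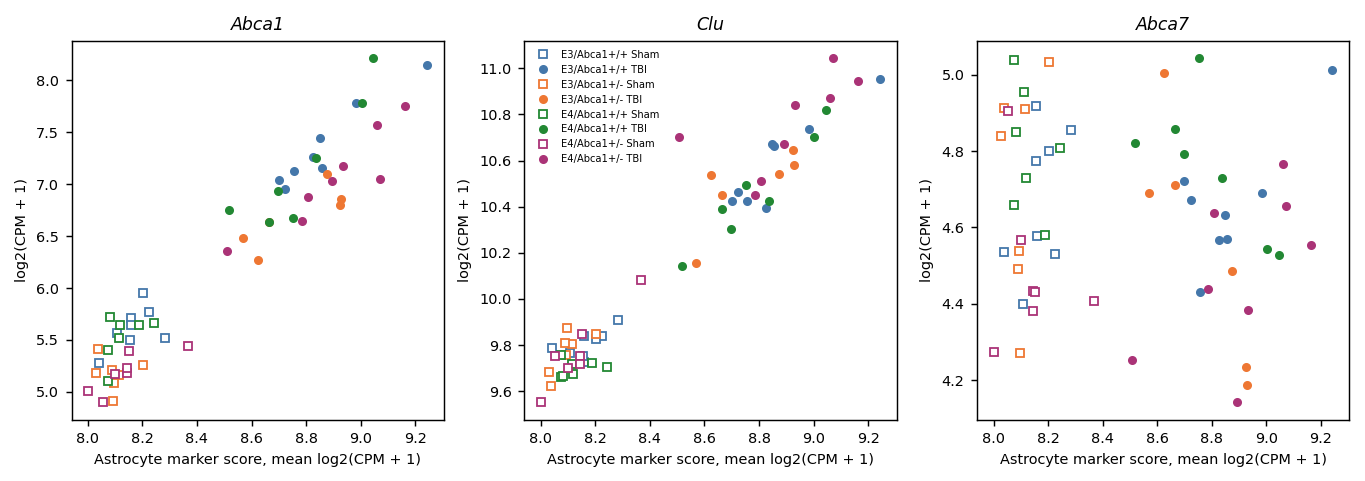
Log2(CPM + 1) of Abca1, Clu and Abca7 against the astrocytic marker score (mean log2(CPM + 1) of 8 markers), 1 point per mouse, filled for TBI and open for sham, coloured by genotype. Abca1 and Clu climb with the score among injured mice (r of 0.89 and 0.82 within groups). Abca7 shows no common slope (r = -0.04), with r from -0.88 to 0.74 within single genotypes.

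The genes most like each member, by r of the deviations from the 8 group means over 58 mice and 14380 genes, are a description with no test. For Abca1 they were Cp (r = 0.87), Nfe2l2 (r = 0.87), Vcam1 (r = 0.86), which encode ceruloplasmin, a regulator of the oxidative stress response and a vascular adhesion molecule. Those of Clu were Fxyd1 (r = 0.88), Mlc1 (r = 0.85), Gfap (r = 0.83), 3 genes known from astrocytes. Apod was most like Serping1 (r = 0.79), Gsn (r = 0.78), Laptm4a (r = 0.77), and Pltp most like Ltbr (r = 0.78), Ddr1 (r = 0.76), Kif1c (r = 0.76). Abcg1 had Gnai2 (r = 0.70), Ctsa (r = 0.70), of which Ctsa encodes a lysosomal protease. For Nr1h3 the values were lower, at Mmp19 (r = 0.60), Gpr37l1 (r = 0.58), Tor4a (r = 0.58). Nr1h2 went with Zfp579 (r = 0.77), Zfp219 (r = 0.76), Med25 (r = 0.73), Abca7 with Map4k2 (r = 0.76), Wdr90 (r = 0.72), Abcg4 with Gaa (r = 0.64), Sez6l2 (r = 0.63), Copg1 (r = 0.63), and the Apoe row with Ddr1 (r = 0.62), Pdlim4 (r = 0.62), Mmp15 (r = 0.61).

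The other genes of the pathway were taken in 6 lists and read from the effects averaged over the other factors. For TBI the shares of all genes called, against which each list's counts stand, were 29% higher and 24.3% lower. Of 10 other LXR target genes in the table, 7 rose after TBI, 0 fell and 3 were not called, with a median log2 fold change of 0.36 against 0.01 over all genes. Apoc1, a small apolipoprotein of the Apoe gene cluster, went from 0.995 ± 0.469 CPM (SD, n = 29) in sham to 5.29 ± 2.90 CPM (n = 29) in injured mice, a change of 2.40 (standard error 0.19, edgeR, adjusted p = 9.52e-17). Lpl, lipoprotein lipase, changed by 0.87 (standard error 0.11, edgeR, adjusted p = 1.35e-09) and Srebf1, a regulator of fatty acid synthesis, by 0.82 (standard error 0.06, edgeR, adjusted p = 9.35e-17), the latter with 28 of 29 injured mice above all sham mice. Scd1, Scd2 and Arl4c were not called, at -0.06, 0.03 and 0.03.

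Of the partners and cofactors of the receptors, 2 of 10 were higher, 6 lower and 2 not called, with a median of -0.12, beside 29% and 24.3% of all genes. The retinoid X receptor genes Rxrg (0.47, standard error 0.08, edgeR, adjusted p = 7.39e-07) and Rxra (0.07, standard error 0.03, edgeR, adjusted p = 0.0379) rose. Of the corepressor and coactivator genes, Ncoa2 (-0.20, standard error 0.02, edgeR, adjusted p = 7.86e-10) and Nrip1 (-0.19, standard error 0.05, edgeR, adjusted p = 0.000444) were among those that fell. Enzymes that make or remove oxysterols counted 4 higher, 1 lower and 3 not called of 8, median 0.26. Ch25h, which makes 25-hydroxycholesterol, went from 0.529 ± 0.205 CPM in sham to 2.65 ± 1.56 CPM in injured mice (SD, n = 29 each), 2.27 (standard error 0.19, edgeR, adjusted p = 1.45e-15) on the log2 scale. Its sham level was near the floor, as 3 counts are 0.0792 to 0.679 CPM across the libraries, so the size of this change is less certain. Cyp27a1 (0.49, standard error 0.09, edgeR, adjusted p = 1.3e-05) and Hsd3b7 (0.49, standard error 0.05, edgeR, adjusted p = 1.76e-11) rose and the sulfotransferase gene Sult2b1 (-0.32, standard error 0.05, edgeR, adjusted p = 4.97e-07) fell, while Cyp46a1, which makes 24S-hydroxycholesterol in neurons, was at 0.02 and not called.

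Sterol storage and transport inside the cell gave 7 higher, 5 lower and 2 not called of 14, median 0.11. Plin2, a coat protein of lipid droplets, rose from 5.94 ± 1.03 to 16.3 ± 8.10 CPM, by 1.41 (standard error 0.13, edgeR, adjusted p = 3.66e-14), and the lysosomal genes Npc2 (0.92, standard error 0.06, edgeR, adjusted p = 1.83e-19) and Lipa (0.57, standard error 0.07, edgeR, adjusted p = 7.45e-10) rose as well. Stard4 (-0.53, standard error 0.06, edgeR, adjusted p = 2.19e-10), Osbpl1a (-0.36, standard error 0.05, edgeR, adjusted p = 4.7e-09) and Gramd1b (-0.26, standard error 0.03, edgeR, adjusted p = 1.35e-11), which carry sterol between membranes, fell. Of 12 lipoprotein acceptors and remodelling genes only 4 were in the table, and 2 rose and 2 fell, median 0.15. The scavenger receptor gene Cd36 (0.85, standard error 0.18, edgeR, adjusted p = 5.03e-05) and the acyltransferase gene Lcat (0.42, standard error 0.05, edgeR, adjusted p = 2.11e-11) rose, and the lipase gene Lipg (-0.56, standard error 0.09, edgeR, adjusted p = 4.01e-07) and the HDL receptor gene Scarb1 (-0.11, standard error 0.03, edgeR, adjusted p = 0.0023) fell. The other ABCA and ABCG transporters gave 4 higher, 3 lower and 3 not called of 10, median 0.08, which is near the shares of all genes. Abca9 (0.79, standard error 0.08, edgeR, adjusted p = 2.28e-12), Abca8a (0.24, standard error 0.08, edgeR, adjusted p = 0.00822) and Abcg2 (0.23, standard error 0.04, edgeR, adjusted p = 2.56e-06) were the highest of those called, and Abca5 (-0.18, standard error 0.03, edgeR, adjusted p = 2.42e-06), Abca2 (-0.09, standard error 0.03, edgeR, adjusted p = 0.00181) and Abca3 (-0.08, standard error 0.04, edgeR, adjusted p = 0.047) fell by little.

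For the number of Abca1 copies 17.9% of all genes were called, and for the isoform 15%. At an unadjusted p under 0.05 (edgeR) they were 4586 and 4275 of 15171 genes. With 1 copy, 3 of 10 partners and cofactors were lower, Ncoa1 (-0.12), Ncoa2 (-0.08) and Ncor1 (-0.07), with a list median of -0.04. Apoc1 alone of the 10 other targets was called, higher at 0.76 (standard error 0.19, edgeR, adjusted p = 0.00297). Its sham mean was 0.995 CPM, where 3 counts in the shallowest library are 0.679 CPM. Among storage and transport genes Npc2 (0.18) was higher and Nceh1 (-0.09), Gramd1b (-0.08) and Osbp (-0.07) lower, and among transporters Abca2 (-0.09) and Abca5 (-0.13) were lower. The highest adjusted p of these calls (edgeR) were 0.046 for Ncor1, 0.0308 for Gramd1b, 0.0296 for Npc2 and 0.0231 for Ncoa2. Depth differed between the copy numbers, and the calls of these list genes were not read again after thinning. The oxysterol enzymes and the lipoprotein genes had 0 calls of 8 and of 4 in edgeR, with 2 and 1 at an unadjusted p under 0.05 and 0 calls in DESeq2. APOE4 mice had higher Scd1 (0.13) and Arl4c (0.09) than APOE3 mice. For the isoform edgeR called 0 oxysterol enzymes, 0 lipoprotein genes, 0 storage genes and 0 transporters, with 4, 0, 5 and 2 at an unadjusted p under 0.05 and 1, 0, 1 and 0 calls in DESeq2.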

How the data were processed

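The table held raw counts per gene for 58 mice, deposited by the authors after alignment and summarization with Subread and featureCounts (1.5.0) on mm10, per the submitters' processing notes; strand setting and annotation are not given in the sources used here. In the work reported here, 23 gene symbols stored as dates were restored and 2 empty lines dropped. CPM values were computed with TMM factors (0.954 to 1.038) set over all mice. Each comparison was fitted to the groups it concerns with edgeR's quasi-likelihood test (4.0.16, R 4.3.3), with Benjamini-Hochberg adjustment over 15171 genes and a threshold of 0.05; filterByExpr removed 0 genes. Averaged effects, the interaction of all 3 factors and the sex comparison used all 58 mice. DESeq2 (1.42.0), other filters, size factors, sex as a covariate, thinning and a single fit were alternatives, and leaving out mice by marker scores was added after the data were seen. The test code was tested on simulated data. Relations used 100000 permutations (two-sided, scipy 1.17.1) of log2(CPM + 1) deviations from group means. Coordinates are those of the GRCm38 annotation and promoter sequences those of RefSeq. Each mouse is a separate animal, group sizes were 6 to 8, and total counts of 4421308 to 37877346 give a floor of 3 counts at 0.0792 to 0.679 CPM, for counting error only. The members, the lists and the tests were chosen with earlier results of these data known. Genes named were the 10 members, up to 3 called genes per list and direction by size of the averaged injury effect, list genes called for Abca1 copies or isoform, and the 3 genes most like each member among those with a mean of at least 1 CPM; other list genes named (Scd2 and Cyp46a1) were chosen after their values were seen. Some genes that this rule names are not reported here.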

Additional observations from a re-analysis of the deposited data

Results flagged for a closer look

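In 5 of the 80 sets of 1 gene in 1 group, a single mouse stood apart from the rest by Dixon's test, which flags about 1 in 20 groups by chance. Abcg1 in E4/Abca1+/+ sham mice was lowest in 1 female with 87.6 CPM, against 99.8 CPM in the nearest of the other 6. That mouse had a choroid plexus marker score of 4.37. Abca7 was highest in 1 injured E3/Abca1+/+ female at 31.3 CPM, with the next mouse at 25.4 CPM, and in 1 E4/Abca1+/- sham male at 28.97 CPM, with the next at 22.7 CPM. The injured female had a hippocampal marker score of 4.37. Apod reached 239.8 CPM in 1 injured E4/Abca1+/+ female, against 153 CPM in the next mouse, and that female had the highest choroid plexus marker score of all mice, 5.24. Apod also reached 328 CPM in 1 injured E4/Abca1+/- male, against 218 CPM in the next, with a choroid plexus marker score of 1.69. The part of the choroid plexus and hippocampal markers in these values was not tested.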

How the results depend on the processing

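Of 38 gene results with a call, 365 alternatives gave 348 calls that stood, 17 that were lost and 0 reversed. Of 32 counts and their 281 alternatives, 262 stayed within 1.5 times and 19 did not. The cause was not tested unless named. Shares of all genes called are given for the main fit only, so counts under the alternatives stand without one. Because filterByExpr removed 0 genes, the run with no filter repeats the main fit and could not differ from it. It makes up 38 of the 348 calls that stood and 28 of the 262 counts. Thinning every library to 4421308 counts, which leaves fewer counts per gene, gave 4 members higher and 0 lower after TBI in E3/Abca1+/- mice, 1 called for Abca1 copies averaged and 0 between sexes. A single fit over all mice gave 0 lower after TBI in E3/Abca1+/- mice, 0 for Abca1 copies in APOE3 sham mice, 1 in injured APOE4 mice (Clu, adjusted p = 0.0193, edgeR), and 1 each for the isoform in sham (Nr1h2, adjusted p = 0.0414, edgeR) and injured (Clu, adjusted p = 0.0412, edgeR) Abca1+/- mice. DESeq2 gave 1 for Abca1 copies in injured APOE3 mice, 2 in APOE4 sham mice, 1 for the isoform in Abca1+/- sham mice and 2 lower after TBI averaged. With sex as a covariate 1 was called for copies in injured APOE3 mice (Abca1, adjusted p = 0.0452, edgeR). Without the 16 mice with choroid plexus markers, 0 were lower after TBI in E3/Abca1+/- mice, 2 were lower averaged, 0 were called for copies in APOE3 sham mice and 1 averaged. Without the sham mouse with raised glial markers 1 was called for copies averaged. Thinning also lost Pltp (0.32) and Apoe (0.29) in E3/Abca1+/- and Abcg1 (0.18) in E4/Abca1+/+ mice, and a minimum of 10 counts left 12401 genes, without Nr1h3. No paired analysis was possible because the labels carry no replicate numbers shared between groups and each group holds other mice. Nr1h3 had 6 to 123 counts per mouse, the lowest of the members, and thinning lost 2 of its calls and 2 of Abca7's.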

Other observations

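Among the members themselves, deviations from the 8 group means over 58 mice were most alike in Apod and Clu (r = 0.69), Abca1 and Pltp (r = 0.66) and Abca1 and Clu (r = 0.64), and ran most against each other in Abcg4 and Pltp (r = -0.32). Nr1h2 and Nr1h3 had an r of 0.46, while Abca1 and Nr1h2 had 0.04. These values share libraries and scaling and are given as a description.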
